A study of Mus musculus with 4 samples.

Results

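The 10 genes described here belong to the Bcl2 family, the proteins that set whether the mitochondrial route of apoptosis starts. They were taken by gene symbol, a rule that uses no measured value, although earlier results of these data were known when the genes were picked. Every array probe whose gene symbol in the deposited table was Bcl2, Bcl2l1, Mcl1, Bax, Bak1, Bad, Bid, Bcl2l11, Bbc3 or Pmaip1 was taken. All 10 genes were on the array, as 10 of its 24561 gene symbols and 14 of its 55681 gene probes. Bcl2l1, Mcl1, Bad and Bcl2l11 had 2 probes each, which are written (i) for the brighter and (ii) for the dimmer, and each member probe was printed as 1 spot. Of the 14 probes, 13 probes for 9 genes were well above background in all 4 lines, and the Pmaip1 probe was in none.

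The study asked how splice variants of Fbxw11, an F-box protein that chooses substrates for the SCF ubiquitin ligase, change the growth and gene expression of leukemia cells. Cells of L1210, a mouse lymphocytic leukemia line (DBA subline 212), were infected with virus carrying Fbxw11a, the full-length form, Fbxw11c or Fbxw11d, which are shorter forms that skip internal exons, or a control, giving L1210-Fbxw11a, L1210-Fbxw11c and L1210-Fbxw11d, called the Fbxw11a, Fbxw11c and Fbxw11d lines below, and L1210-Control, called the control line. All 4 lines were stably transfected, sorted as GFP+ cells by flow cytometry and grown in RPMI medium, so each line is 1 sorted population and the control carries virus and GFP too. Total RNA of each line was hybridised with Cy3 to 1 Agilent mouse array, with no replicate array, so no difference below has a replicate check or a p-value, and the 3 comparisons with the control line share its single array.

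The family falls into groups by role. Bcl2, Bcl2l1 (which encodes Bcl-xL) and Mcl1 are anti-apoptotic: they hold the effectors Bax and Bak1 in check at the outer mitochondrial membrane. When free, Bax and Bak1 form pores through which cytochrome c leaves the mitochondrion and starts the caspase cascade. The BH3-only proteins Bad, Bid, Bcl2l11 (Bim), Bbc3 (Puma) and Pmaip1 (Noxa) relay stress signals by binding the anti-apoptotic proteins or the effectors. In lymphoid cells Bim and Puma are known as the main BH3-only proteins for growth factor loss and DNA damage, and Mcl1 and Bim proteins are known to be removed through SCF ligases of the Fbxw11 type. The array measured RNA and not protein.

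What the array read can be seen in the sequence of the probes. The 4 shown here lie in coding sequence, and they are given because 3 of these genes are among those with the largest ratios or with probes that differed, and Bcl2 names the family. The capitals mark codons within the BH1 region of Bcl2, an in-frame methionine codon in Bad and the BH3 core of Bcl2l11. The BH3 core is the stretch that docks into the groove of the anti-apoptotic proteins. No part of the Bcl2l1 probe is marked. Sequences are 5′ to 3′ in the sense of the messenger RNA, as the scanner files give them.
Bcl2: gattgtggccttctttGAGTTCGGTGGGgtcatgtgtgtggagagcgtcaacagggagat
Bcl2l1 (ii): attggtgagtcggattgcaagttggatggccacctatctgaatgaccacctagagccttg
Bad (ii): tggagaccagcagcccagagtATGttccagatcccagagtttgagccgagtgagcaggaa
Bcl2l11 (i): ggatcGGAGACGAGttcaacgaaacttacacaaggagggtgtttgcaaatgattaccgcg
On the mouse build mm9 the Bcl2 probe lies at chr1:108608970-108609029 on the minus strand and the Bcl2l1 (ii) probe at chr2:152655185-152655244 on the minus strand. The Bad (ii) probe spans chr19:7016918-7017403 on the plus strand and the Bcl2l11 (i) probe chr2:127972893-127983988 on the plus strand. Each probe has 60 bases, so the last 2 cross splice junctions, over 486 bases of genome for Bad (ii) and 11096 for Bcl2l11 (i), and read spliced RNA.

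Signals below are the background-corrected intensities of the scanner software, divided by the 75th percentile of their own array and printed on the scale of the control array. The ± is the software's error for that spot, which gave a log2 ratio to the control line an error of 0.20 for the brighter probes and of up to 0.34 for the dimmest, and a ratio between variant lines one of up to 0.35. A second measure is the SD that a ratio has from replicate spots of the same brightness, taken from 399 probes printed 10 times on each array, which was 0.0791 to 0.208 for all member probes but Bcl2l11 (ii). Both errors leave out culture, sorting, RNA extraction and labelling. Arrays are read in bulk, so fewer cells that express a gene and less RNA per cell cannot be told apart. The levels of different probes are not compared, since each probe binds with its own strength.

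The arrays were alike in depth of signal except for the Fbxw11d line. Probes well above background were 62.5% to 68.7% of all probes, no gene spot was saturated, and the 75th percentile of the signal was 620.2 to 672 on 3 arrays and 954 on the Fbxw11d array, which alone was on slide 2. The variant and the slide therefore cannot be told apart in the Fbxw11d line. Against the control line, 8 spike-in probes, which read RNA added in known amounts, stood at log2 ratios of 0.15, 0.27 and 0.03 before scaling and at 0.13 ± 0.06, 0.15 ± 0.10 and -0.59 ± 0.09 (SD, n = 8 probes) after it. The part of the scaling in the Fbxw11d ratios was not tested beyond the alternatives given further on.

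Fbxw11, the gene the virus carried, differed from the control line by less than 2-fold in every variant line. Its brighter probe gave 13153 ± 1315 in the control line, 16339 ± 1634 in the Fbxw11a line, 15871 ± 1587 in the Fbxw11c line and 13383 ± 1338 in the Fbxw11d line. The log2 ratios were 0.31, 0.27 and 0.03 on this probe and 0.21, 0.22 and 0.18 on the other, all under 2-fold, so these probes alone do not show the raised Fbxw11 that the labels name. The probes start at bases 3803 and 3692 of the transcript in the scanner output, and whether the virus carried that stretch was not tested. The study checked the lines by RT-PCR and western blotting, which were not analysed here. The lines are called by their labels, and every direction below rests on those labels.

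None of the 9 measured members differed from the control line by 2-fold or more in any variant line. The background for this count was 4.45% of 17928 compared genes past 2-fold in the Fbxw11a line, 3.87% of 17732 in the Fbxw11c line and 5.74% of 18435 in the Fbxw11d line. Beside shares of this size, 0 of 9 genes sets the family little apart from the other genes. No member, by its brighter probe, passed 1.5-fold either, against 10.8% of all compared genes in the Fbxw11a line, 9.86% in the Fbxw11c line and 14.7% in the Fbxw11d line. Between variant lines no member passed 2-fold, against 4.22% of genes for the Fbxw11c and Fbxw11a lines, 6.02% for the Fbxw11d and Fbxw11a lines, and 4.23% for the Fbxw11d and Fbxw11c lines. With the dimmer probes included, the largest ratios to the control line among the members were lower signals of Bbc3, Bcl2l11 and Bcl2l1. By the brighter probes Bcl2l1 reached only -0.31 on the log2 scale, in the Fbxw11d line. Bak1 at 0.38 and Bax at -0.36 in that line, and Bad at 0.35 in the Fbxw11c line, were larger in size.

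**Figure D1:**
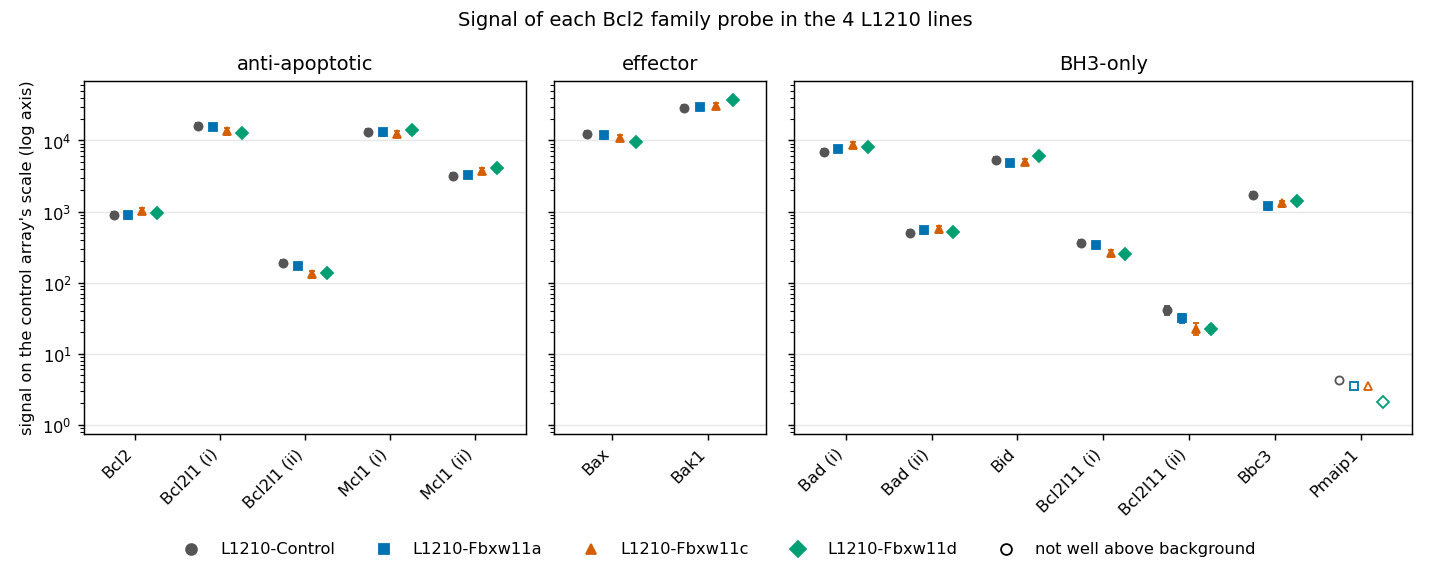
Signal of each of the 14 member probes (log axis, control array's scale) in the 4 L1210 lines, grouped by role; bars are the scanner software's error of the spot, often smaller than the symbol, and (i) and (ii) are the brighter and dimmer probe of a gene. Each probe keeps a similar signal in all 4 lines, and the open Pmaip1 symbols, 2.07 to 4.199, are not well above background.

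Among the anti-apoptotic genes, Bcl2 lay within 1 scanner error of the control line in every variant line. Its probe gave a signal of 906 ± 90.7 in the control line, 884 ± 88.5 in the Fbxw11a line, 1019 ± 102.0 in the Fbxw11c line and 947 ± 94.7 in the Fbxw11d line. The 4 values overlap within their errors, and the log2 ratios to the control line were -0.03, 0.17 and 0.06 for the Fbxw11a, Fbxw11c and Fbxw11d lines.

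Bcl2l1, whose main product Bcl-xL guards mitochondria much as Bcl2 does, was lower in the Fbxw11c and Fbxw11d lines on both of its probes. The brighter probe, at chr2:152606404-152606463, gave 16022 ± 1602 in the control line, 15378 ± 1538 in the Fbxw11a line, 13409 ± 1341 in the Fbxw11c line and 12902 ± 1290 in the Fbxw11d line. The probe printed above gave 190.04 ± 19.5, 173 ± 17.6, 130.5 ± 13.5 and 137 ± 13.8 in the same order. On both probes the control line was highest and the Fbxw11a line next to it, while the Fbxw11c and Fbxw11d lines lay within each other's error. The log2 ratios in the Fbxw11c line were -0.26 on the brighter and -0.54 on the dimmer probe, and in the Fbxw11d line they were -0.31 and -0.47. Only the dimmer probe's ratios were larger than 2 scanner errors. In the Fbxw11a line both were smaller than 1 error, -0.06 and -0.13.

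Mcl1, a short-lived guardian that many leukemia cells depend on, gave no single direction. Its brighter probe, at chr3:95466855-95466914, read 13287 ± 1329 in the control line, 13018 ± 1302 in the Fbxw11a line, 12387 ± 1239 in the Fbxw11c line and 13874 ± 1387 in the Fbxw11d line, values that overlap within their errors. Its dimmer probe, further upstream at chr3:95465543-95465602, read 3156 ± 316, 3265 ± 326, 3768 ± 377 and 4058 ± 406. On that probe the control line was lowest and the Fbxw11d line highest, with log2 ratios of 0.05, 0.26 and 0.36, none of them past 2 errors. On the brighter probe the ratios were -0.03, -0.10 and 0.06, so the probes of 1 transcript differed in sign in the Fbxw11a and Fbxw11c lines. With the mean of both probes the Mcl1 ratio turned to 0.01 in the Fbxw11a line and 0.08 in the Fbxw11c line. The brighter probe's ratio in the Fbxw11d line turned to -0.03 with the authors' normalized values and was also below 0 after quantile normalization.

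The 2 effectors lay on opposite sides of the control line in the Fbxw11d line. Bax, read at chr7:52717122-52717181, gave 12237 ± 1224 in the control line, 11841 ± 1184 in the Fbxw11a line, 10954 ± 1095 in the Fbxw11c line and 9545 ± 955 in the Fbxw11d line. It was lowest in the Fbxw11d line, with log2 ratios of -0.05, -0.16 and -0.36 for the 3 variant lines. Bak1, read at chr17:27156807-27156866, gave 28533 ± 2853 in the control line, 29611 ± 2961 in the Fbxw11a line, 30574 ± 3057 in the Fbxw11c line and 37110 ± 3711 in the Fbxw11d line. It was highest in the Fbxw11d line, with log2 ratios of 0.05, 0.10 and 0.38. The order of the 4 lines on Bak1 was the reverse of that on Bax, and each ratio in the Fbxw11d line was larger than 1 scanner error and smaller than 2. Among all probes of similar brightness (mean log2 signal within 0.5), 11.2% of 1615 had a ratio at least as large in size as Bax in the Fbxw11d line, and 5.97% of 837 had one as large as Bak1.

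**Figure D2:**
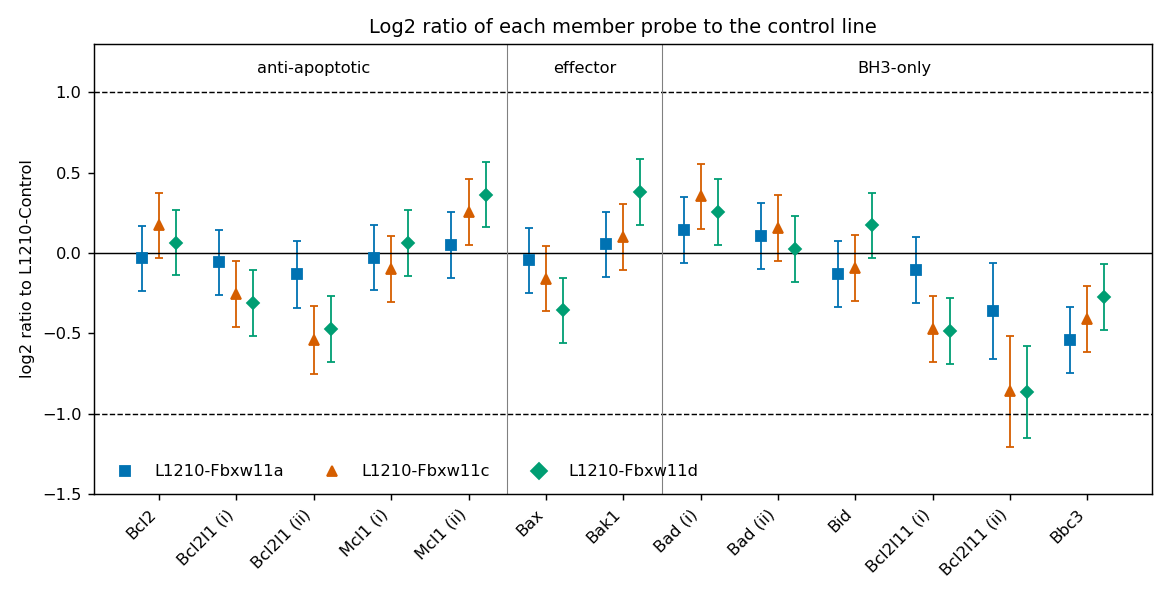
Log2 ratio of each of the 13 measured member probes to the control line (vertical axis) in the 3 variant lines, grouped by role; bars are the scanner error of the ratio and dashed lines mark 2-fold. No point reaches a dashed line, and Bcl2l11 (ii) lies lowest, at -0.87 in the Fbxw11d line.

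The BH3-only genes held both the highest and the lowest ratios of the family in the Fbxw11a and Fbxw11c lines. Bad, which binds Bcl2 and Bcl-xL when it is not phosphorylated, was above the control line in every variant line on both probes. Its brighter probe, at chr19:7026323-7026382, gave 6839 ± 684 in the control line, 7547 ± 755 in the Fbxw11a line, 8729 ± 873 in the Fbxw11c line and 8158 ± 816 in the Fbxw11d line. The junction probe printed above gave 504 ± 50.6, 543 ± 54.4, 561 ± 56.2 and 513 ± 51.4. On both probes the Fbxw11c line was highest, but the sizes differed: the log2 ratios were 0.14, 0.35 and 0.25 on the brighter probe, and 0.11, 0.15 and 0.03 on the dimmer one, all of the latter within 1 error.

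Bid, which is cut by caspase 8 and then activates Bax and Bak1, was read at chr6:120843464-120843523. It gave 5335 ± 534 in the control line, 4875 ± 488 in the Fbxw11a line, 5002 ± 500.2 in the Fbxw11c line and 6009 ± 601 in the Fbxw11d line. All 3 variant lines lay within 1 error of the control line, at log2 ratios of -0.13, -0.09 and 0.17.

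Bcl2l11, the gene of Bim, was lower in the Fbxw11c and Fbxw11d lines on both probes. The probe with the BH3 core gave 359.5 ± 36.2 in the control line, 333 ± 33.5 in the Fbxw11a line, 259 ± 26.1 in the Fbxw11c line and 256.5 ± 25.7 in the Fbxw11d line. The other probe, which spans the junction at chr2:127954736-127955417, was dim and gave 40.9 ± 5.92, 31.9 ± 4.78, 22.5 ± 4.27 and 22.5 ± 3.06. In each case the Fbxw11a line lay between the control line and the other two lines, whose signals were nearly equal. The log2 ratios for the Fbxw11a, Fbxw11c and Fbxw11d lines were -0.11, -0.47 and -0.49 on the first probe and -0.36, -0.86 and -0.87 on the second, and those of the Fbxw11c and Fbxw11d lines were larger than 2 scanner errors on both. On the second probe they were under 2 SD of replicate spots, which was 0.58 and 0.75 for the Fbxw11c and Fbxw11d lines, so at this dimness they do not stand clear of the spread between spots. The ratios of the second probe in these lines are the largest of any member probe. The signal was 1.39-fold and 1.40-fold lower on the first probe and 1.82-fold lower in both lines on the second. They are not rare at this brightness: 9.51% and 19.0% of probes as bright as the first, and 6.90% and 17.4% of probes as bright as the second, had a ratio at least as large in the Fbxw11c and Fbxw11d lines.

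Bbc3, the gene of Puma and a classic p53 target, had the widest range over the 4 arrays among the members by their brighter probes, 0.54 on the log2 scale. Its probe, at chr7:16903403-16903462, gave 1729 ± 173 in the control line, 1187 ± 119 in the Fbxw11a line, 1299 ± 129.98 in the Fbxw11c line and 1428 ± 143 in the Fbxw11d line. The control line was above all 3 variant lines, and the Fbxw11a line was the lowest. The log2 ratios were -0.54, -0.41 and -0.28, of which those in the Fbxw11a and Fbxw11c lines were larger than 2 scanner errors. Of 2604 probes of similar brightness, 3.23% had a ratio at least as large in the Fbxw11a line, the smallest such share of any member probe in that line. The share was 6.11% of 2634 in the Fbxw11c line and 28.2% of 2611 in the Fbxw11d line. The genes whose pattern over the 4 arrays lay nearest to that of Bbc3, by Euclidean distance of centred log2 signals over 16250 genes above background on all 4 arrays, were Slc9a5 at a distance of 0.00713, Tmem63a at 0.0474 and Slc7a3 at 0.0486. Within a distance of 0.2 lay 241 genes, so a match over 4 arrays is not rare.

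Pmaip1, the gene of Noxa, was read by 1 probe at a signal of 4.199, 3.52, 3.56 and 2.07 in the control and the Fbxw11a, Fbxw11c and Fbxw11d lines. It was not well above background in any line, and no ratio is given for it. The probes above background reached down to signals of 18.1, 14.4, 14.9 and 10.4 on the 4 arrays.

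Set side by side, 39 ratios of 13 probes were measured against the control line, of which 18 were larger than 1 scanner error and 8 larger than 2. Past 1 error were 2, 7 and 9 of 13 member probes in the Fbxw11a, Fbxw11c and Fbxw11d lines, against 36.5%, 35.2% and 53.1% of all measured probes, and past 2 errors were 1, 4 and 3, against 13.5%, 12.2% and 24.6%. These 8 were all lower in the variant line: Bbc3 in the Fbxw11a line, Bbc3, both Bcl2l11 probes and Bcl2l1 (ii) in the Fbxw11c line, and both Bcl2l11 probes and Bcl2l1 (ii) in the Fbxw11d line. By gene, 2 of 9 members were above the control line and 7 below in the Fbxw11a line, with a median log2 ratio of -0.05 against 0.004 over 16513 genes measured on both arrays. In the Fbxw11c line 3 were above and 6 below, with a median of -0.10 against 0.02 over 16421 genes. In the Fbxw11d line 5 were above and 4 below, with a median of 0.06 against 0.04 over 16537 genes. The median size of the ratio, whatever its sign, was 0.059 for the members and 0.145 for all genes in the Fbxw11a line, 0.17 and 0.145 in the Fbxw11c line, and 0.276 and 0.213 in the Fbxw11d line. Counted against all probes of the same brightness, 1 of 13 member probes in the Fbxw11a line, 5 in the Fbxw11c line and 3 in the Fbxw11d line had under 5% of those probes as far out on their own side. They were Bbc3 in the Fbxw11a line, Bbc3, Bcl2l1 (i), both Bcl2l11 probes and Bad (i) in the Fbxw11c line, and Bax, Bak1 and Bcl2l1 (i) in the Fbxw11d line. By construction 10% of all probes lie that far out, counting both sides.

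**Figure D3:**
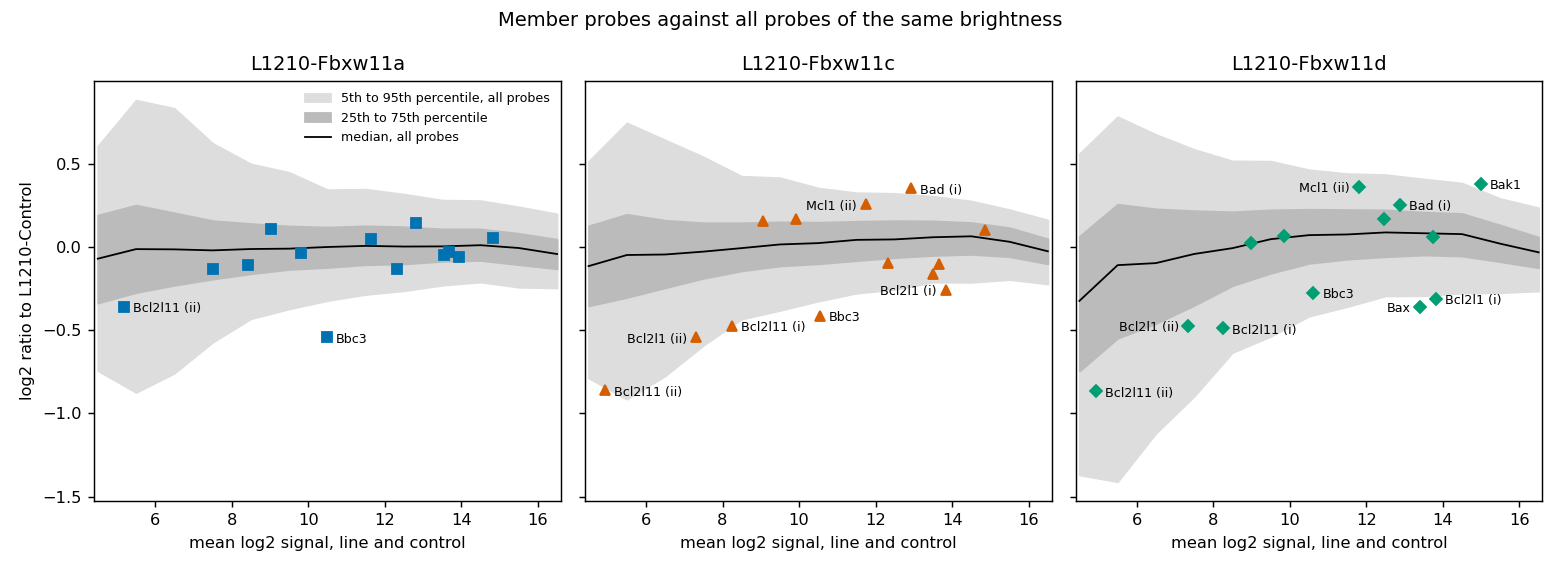
Log2 ratio to the control line (vertical axis) against mean log2 signal of the line and the control (horizontal axis) for the 13 measured member probes, over the spread of all probes of the same brightness (grey bands and median line). The 9 points with under 5% of like-bright probes as far out on their side lie near or beyond the edge of the light band: Bbc3 in the Fbxw11a line, Bbc3, Bcl2l1 (i), both Bcl2l11 probes and Bad (i) in the Fbxw11c line, and Bax, Bak1 and Bcl2l1 (i) in the Fbxw11d line.

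The role groups can be compared only as counts. The brighter probe of each gene is used for these groups. In the Fbxw11a line all 3 anti-apoptotic genes and both effectors were within 0.06 of the control line on the log2 scale. The dimmer probe of Bcl2l1 was further off, at -0.13. The 4 measured BH3-only genes ranged from -0.54 for Bbc3 to 0.14 for Bad. In the Fbxw11c line the BH3-only genes ranged from -0.47 for Bcl2l11 to 0.35 for Bad, and the anti-apoptotic genes from -0.26 for Bcl2l1 to 0.17 for Bcl2. In the Fbxw11d line the widest pair was Bcl2l11 at -0.49 and Bak1 at 0.38. Between the variant lines themselves, the largest ratio by the brighter probes was that of Bcl2l11, at -0.36 for the Fbxw11c line and -0.38 for the Fbxw11d line against the Fbxw11a line. Its dimmer probe gave -0.50 and -0.51, and none of these was past 2 scanner errors. The ratios of the Fbxw11d line to the Fbxw11c line ran from -0.20 for Bax to 0.28 for Bak1. The median size of the members' ratios was 0.131 between the Fbxw11c and Fbxw11a lines, 0.136 between the Fbxw11d and Fbxw11c lines and 0.267 between the Fbxw11d and Fbxw11a lines, against 0.140, 0.183 and 0.22 over all genes.

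Under 8 other ways of processing the same arrays, no measured member reached 2-fold in any line, and the largest ratio in any of them was 0.68 in size, for Bcl2l11 in the Fbxw11d line with the mean of its 2 probes. Of 27 ratios of a gene to the control line, 24 kept their sign throughout and 3 did not, all of them Mcl1. Centring the arrays on their median in place of the 75th percentile moved the median of all genes in the Fbxw11d line by 0.22, and every member of that line moved up with it by the same amount. Bbc3 in that line was then at -0.06, Bax at -0.14, Bcl2l1 at -0.09 and Bcl2l11 at -0.27, while Bak1 stood at 0.60. The ratio of Bcl2l11 was then no longer larger than 2 scanner errors.

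**Figure D4:**
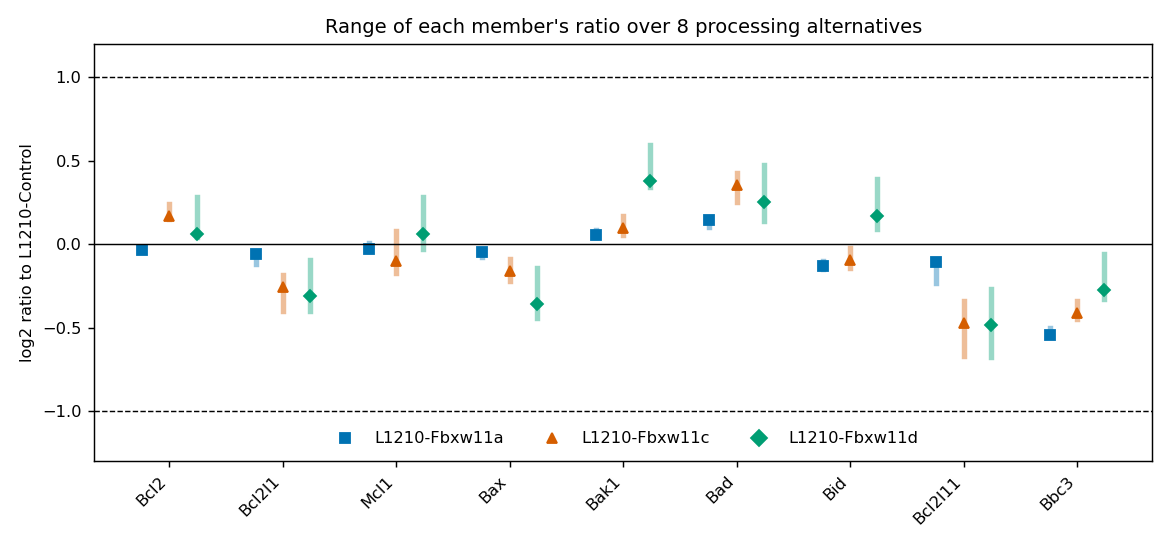
Log2 ratio of the 9 measured members to the control line (vertical axis) as reported (symbols) and its range over 8 processing alternatives (bars) in the 3 variant lines; dashed lines mark 2-fold. Mcl1 is the member whose bars cross 0, and the bars of the Fbxw11d line are the longest because median centring shifts the whole array.

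The rest of the pathway was described through 5 lists of genes. Of 16 further genes of the Bcl2 family, 14 were on the array by these symbols, all but Bcl2a1a and Bcl2a1b, and 11 were above background in at least 1 line. Bcl2l10, Bmf and Hrk were not well above background anywhere. In each variant line 3 of the 11 compared genes were 2-fold or more below the control line and none was above, and they were Bcl2a1c, Bcl2a1d and Bcl2l15 each time. With the normexp background correction, Bcl2a1c and Bcl2l15 were under 2-fold in the Fbxw11a line and Bcl2a1c was under it in the Fbxw11c line. The median over the compared genes, with 1 or 2 of them at their bound, was -0.17, -0.09 and -0.31. Apart from these 3, the highest ratios were Bcl2l2 at 0.19 and 0.38 in the Fbxw11a and Fbxw11d lines, and Bik, a dim BH3-only gene, at 0.45 in the Fbxw11c line. Genes called lower in this way made up 2.02% of all compared genes in the Fbxw11a line, 2.26% in the Fbxw11c line and 4.69% in the Fbxw11d line. The list was written with earlier results of these data known, so its count is a description.

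Bcl2a1d, a mouse copy of the anti-apoptotic gene A1 that NF-κB is known to induce, had the largest measured ratios of the 5 lists. Those of Bcl2a1c are bounds and cannot be ranked against them. Its probe gave 507 ± 50.8 in the control line, 87.0 ± 9.19 in the Fbxw11a line, 42.2 ± 5.21 in the Fbxw11c line and 29.9 ± 3.64 in the Fbxw11d line. The control was above all 3 variant lines by far more than the errors, by 5.83-fold, 12.02-fold and 16.9-fold, or log2 ratios of -2.54, -3.59 and -4.08. Bcl2a1c was well above background only in the control line, at 67.1 ± 7.82, and the control was at least 4.67-fold, 4.51-fold and 6.45-fold higher than the Fbxw11a, Fbxw11c and Fbxw11d lines. These bounds did not hold with the normexp background correction, under which Bcl2a1c was at log2 ratios of -0.78, -0.91 and -1.42. The mouse A1 genes are near-identical copies, so how much each copy adds to either signal is uncertain. Bcl2a1d stayed past 2-fold in all 8 alternatives in each line, with its smallest ratios, -1.91, -2.50 and -3.04, after the normexp background correction. A1 is also made in myeloid cells, and the summed signal of 8 monocyte and macrophage markers was 16294 in the control line, 13953 in the Fbxw11a line, 12588 in the Fbxw11c line and 13153 in the Fbxw11d line. Of these 8, 6 were above background in all lines, Mpo in all but the Fbxw11c line and Lyz2 in none, and single markers varied. Cd68 was at log2 ratios of -0.37, -0.67 and -0.45 and Cd14 at -0.32, -0.60 and -0.39, Csf1r was at -1.12 in the Fbxw11d line, and Emr1 was at 0.91, -0.44 and 0.91. The part of such cells in the Bcl2a1d signal was not tested.

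Bcl2l15, a little-studied pro-apoptotic relative, gave 967 ± 96.8 in the control line, 449 ± 44.96 in the Fbxw11a line, 416 ± 41.8 in the Fbxw11c line and 403 ± 40.3 in the Fbxw11d line. The 3 variant lines were alike and below the control, at log2 ratios of -1.11, -1.22 and -1.26. Its second measured probe gave -1.63, -1.49 and -1.18. The ratio in the Fbxw11a line was -0.98 with normexp, just under 2-fold. Bcl2l2 and Bcl2l14 had probes that disagreed. Bcl2l2, the gene of the guardian Bcl-w, was at log2 ratios of 0.19, -0.03 and 0.38 on its brighter probe and at 1.28, 0.25 and 0.43 on its dimmer one. Bcl2l14 was at -0.30, -0.09 and -0.18 on its brighter probe, while its dimmer probe was above background only in the control line and gave log2 ratios of at most -1.498, -1.32 and -1.96.

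Of 18 genes for the release of cytochrome c, the apoptosome and the caspases, none passed 2-fold in either direction in any line, of 17, 17 and 18 compared in the Fbxw11a, Fbxw11c and Fbxw11d lines. Past 2-fold in either direction were 4.45%, 3.87% and 5.74% of all compared genes in these lines, of which genes called higher made up 2.43%, 1.61% and 1.05% of all compared genes. The medians of the list were 0.007, 0.10 and 0.01 on the log2 scale. The lowest ratio in the Fbxw11a line was that of the initiator Casp9 at -0.12. The extremes in the other two lines were Casp6 at 0.28 and Dffa, which holds the nuclease of apoptosis inactive, at -0.30 in the Fbxw11c line, and Casp6 at 0.49 and Casp9 at -0.27 in the Fbxw11d line.

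All 10 genes listed as inhibitors of apoptosis were above background in every line. The name refers to blocking caspases or their activation, a role that was not tested for any of them, the Naip genes included. None was called higher, and 0, 1 and 1 were called lower in the Fbxw11a, Fbxw11c and Fbxw11d lines, where 2.02%, 2.26% and 4.69% of all compared genes were lower. Birc3, which encodes cIAP2 and is a known NF-κB target, gave 245 ± 24.8 in the control line, 133 ± 13.7 in the Fbxw11a line, 114 ± 11.9 in the Fbxw11c line and 141 ± 14.2 in the Fbxw11d line. All 3 variant lines were below the control, at log2 ratios of -0.88, -1.10 and -0.80, and its second probe gave -0.67, -1.19 and -1.24, so which lines pass 2-fold depends on the probe. With the normexp background correction the brighter probe was at -0.85 in the Fbxw11c line, under 2-fold. Naip5, which also senses bacterial flagellin, was 28521 ± 2852 in the control line, 30013 ± 3001 in the Fbxw11a line, 26740 ± 2674 in the Fbxw11c line and 10669 ± 1067 in the Fbxw11d line. Its log2 ratio was -1.42 in the Fbxw11d line, and 0.07 and -0.09 in the Fbxw11a and Fbxw11c lines. The Naip genes are close copies of each other, and their probes may share targets. The medians of the list were 0.07, 0.13 and 0.04, and its highest ratios were Naip1 at 0.28 in the Fbxw11a line and Naip6 at 0.72 in the Fbxw11c line and 0.58 in the Fbxw11d line.

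Foxo4 was not well above background in the control line, and the other 10 of 11 listed transcription factors were in all lines. Among these factors, which are known to act on BH3-only genes, Foxo3, which drives Bcl2l11 and Bbc3 when growth factors are withdrawn, was the gene called lower, in the Fbxw11a and Fbxw11d lines, and none was called higher. The shares of all compared genes called lower in these lines were 2.02% and 4.69%. The signal of Foxo3 was 98.6 ± 10.8 in the control line, 49.1 ± 6.09 in the Fbxw11a line, 51.2 ± 6.31 in the Fbxw11c line and 30.8 ± 3.71 in the Fbxw11d line. The control was above all 3 variant lines, with log2 ratios of -1.01, -0.95 and -1.68. The call in the Fbxw11a line sits on the threshold, and with normexp the ratios became -0.52, -0.54 and -0.95, none of them past 2-fold. Trp53, the gene of p53, which induces Bbc3, Bax and Pmaip1, had the highest ratio in the Fbxw11a line, 0.67, and lay at -0.04 and 0.09 in the Fbxw11c and Fbxw11d lines. Atf4 had the highest ratio in the Fbxw11c line, 0.27, and Foxo1 in the Fbxw11d line, 0.69. The medians over the 10 factors measured in all lines were -0.01, -0.06 and -0.05, and with Foxo4 at its bound they were 0.01, -0.04 and 0.09, of the other sign in 2 of the 3 lines.

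Of 16 genes for the turnover of Mcl1 and Bim proteins, all above background in every line, 1 was called, Mapk8, higher in the Fbxw11d line, where 1.05% of all compared genes were called higher. Mapk8 encodes the kinase JNK1, which phosphorylates Bim. Its brightest probe gave 131 ± 13.7 in the control line, 130.5 ± 13.5 in the Fbxw11a line, 97.2 ± 10.2 in the Fbxw11c line and 278 ± 27.9 in the Fbxw11d line. The log2 ratio in the Fbxw11d line was 1.08 on this probe and 0.68 and 0.26 on the other two, so the call rests on 1 of 3 probes, and the mean of the 3 was 0.68. With normexp it was at 0.75, also under 2-fold. The lowest ratios of this list were Mapk3 at -0.19, Mapk8 at -0.43 and Gsk3b at -0.02 in the Fbxw11a, Fbxw11c and Fbxw11d lines, and the highest in the Fbxw11a line was Trim17 at 0.49. The medians of the list were -0.0018, 0.10 and 0.17. Fbxw11 was the highest of the list in the Fbxw11c line, at 0.27.

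**Figure D5:**
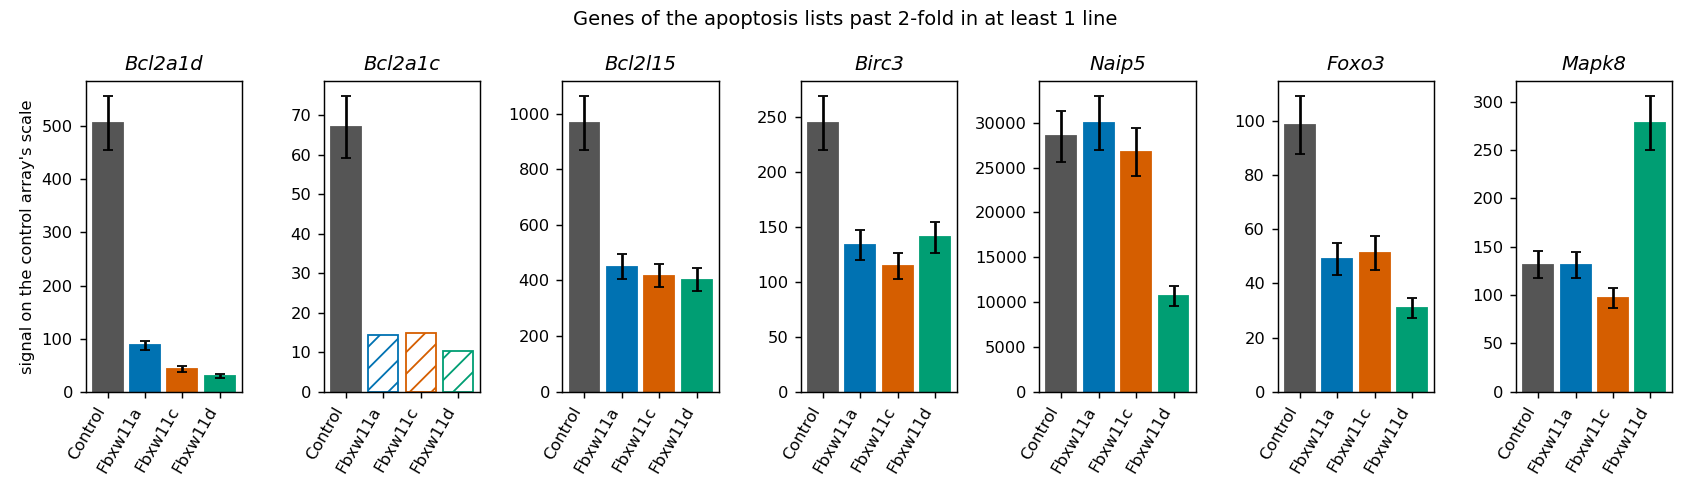
Signal on the control array's scale (bars, from 0) in the 4 lines for the 7 genes of the apoptosis lists that passed 2-fold against the control line in at least 1 variant line; error bars are the scanner software's error of the spot, and hatched bars are upper limits of lines not well above background. Bcl2a1d runs from 507 in the control line to 29.9 in the Fbxw11d line, and Naip5 and Mapk8 pass 2-fold in the Fbxw11d line, in opposite directions.

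The labelled cell type was checked on marker lists. Of 10 B lineage markers 6 were above background in all lines, among them Cd79a, Pax5, Vpreb1, Blnk and Cd22, and Cd79b, Ebf1, Igll1 and Ms4a1 were in none. Of 10 T lineage markers 7 were above background in all lines, among them Cd3e, Cd4, Lck and Cd28, Cd2 was in the variant lines only, and Cd3d and Cd3g were in none. Of the pan-leukocyte markers, Ptprc (CD45) and Coro1a were above background in all lines and Laptm5 only in the Fbxw11a line. Cd28 was 2-fold or more below the control line in every variant line, at log2 ratios of -1.17, -1.17 and -1.37. Genes of both lineages were above background and defining genes of each were not, and the lines are called L1210 by their label. Of 8 monocyte and macrophage markers on the array 6 were above background in all lines, and of 6 fibroblast markers 4. Summed signals ran from 18794 to 23607 for the B lineage list, of which Blnk alone gave 18268 in the control line and 23136 in the Fbxw11a line. They ran from 4678 to 5082 for the T lineage, 1103 to 1463 for the pan-leukocyte and 1224 to 4113 for the fibroblast list. The last was lowest in the control line and was carried by Col1a2, which was 888 ± 88.9 there and 2419 ± 242, 3819 ± 382 and 3688 ± 369 in the Fbxw11a, Fbxw11c and Fbxw11d lines, while the fibroblast marker Thy1 was in no line above background. The part of other cells in the members' ratios was not tested.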

How the data were processed

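RNA of 4 L1210 lines was measured on 1 Agilent 1-colour mouse array per line. The authors deposited the Feature Extraction output of each array, with a background-corrected signal intensity, an error and flags per spot, and 1 table of log2 values they normalized across the 4 arrays, with gene symbols and mm9 coordinates. The submitters' notes name Feature Extraction 9.1 and the file headers 10.7.1.1. The table's normalization method is not given in the sources used here.

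Log2 processed signals from the scanner output were set relative to the 75th percentile of each array's gene spots. Control spots and outlier flags (102 to 167 on an array) were dropped, and a probe's spots were averaged. A probe was compared if at least 0.5 of its spots were well above background on 1 or both of the arrays, with a bound where 1 array was not. A gene was represented by its probe of highest mean signal, and called past the study's fold change of 2. With 1 array per line no test was possible, and the number of arrays limits the precision. The members and the lists (other Bcl2 family, apoptosome and caspases, inhibitors of apoptosis, transcription factors, protein turnover and markers of B lineage, T lineage, pan-leukocyte, monocyte and macrophage, and fibroblast cells) were chosen with earlier results of these data known. Named genes are every member, list genes past 2-fold in at least 1 line, the highest and lowest of each list by line, and the 3 genes nearest in pattern to the member of widest range. A few genes that this rule names are not reported here. Other genes named were chosen after their values were seen.

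Alternatives were normexp (limma 3.58.1, R 4.3.3, offset 50), quantile normalization, median centring, the authors' normalized values, every probe kept whatever its brightness, only probes above background on both arrays, the mean of a gene's probes, flagged spots kept, and thresholds of 1.5 and 3. The step that calls genes was tested on simulated data. Python 3.11.15, numpy 2.4.6 and pandas 2.3.3 were used.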

Additional observations from a re-analysis of the deposited data

How the results depend on the processing

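No member passed 2-fold in the Fbxw11a or Fbxw11c line under any alternative, and in the Fbxw11d line 1 did with no filter on dim probes, Pmaip1, which was not above background on either array. The members' median log2 ratio in the Fbxw11d line was 0.28 with median centring, against 0.06, since that centring raised all genes of this array by 0.22. All 9 members of that line then moved by more than the scanner error, and no other ratio of a member did under any alternative. Of the genes past 2-fold in the Fbxw11d line, 18.3% were higher (194 higher, 865 lower), against 34.3% after quantile normalization (323 and 619), 40.7% with median centring (400 and 582), 34.0% with the authors' values (316 and 613) and 7.24% with normexp (33 and 423). In the Fbxw11c line the share was 41.6% (286 and 401), against 28.7% with normexp (60 and 149). With normexp the genes past 2-fold numbered 245, 209 and 456 in the Fbxw11a, Fbxw11c and Fbxw11d lines, against 798, 687 and 1059. The cause was not tested.

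The 7 pathway genes past 2-fold were recomputed as well, a choice made after seeing the data, and none changed sign. With normexp Bcl2a1c was at -0.78 and -0.91 in the Fbxw11a and Fbxw11c lines, Birc3 at -0.85 in the Fbxw11c line and Mapk8 at 0.75 in the Fbxw11d line, all under 2-fold. With the mean of its probes Birc3 was at -1.02 in the Fbxw11d line. No paired analysis was possible because each line is 1 array, and for the same reason no replicate could be left out. Signals near background limit the ratios of Bcl2l11 (ii), Foxo3 and Bcl2a1c.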
